A study of Homo sapiens with 34 samples.

Results

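The 46 genes described here encode lysosomal enzymes, lysosomal membrane proteins and subunits of the vacuolar proton pump. They were taken by name from the tables of reads per 3′ UTR interval, and the intervals that carry only a member's name were summed per gene, which gave 293 of 71668 intervals and 45 of 19041 gene symbols. The data are SLAM-seq libraries of hTERT-RPE1, an immortalised human retinal pigment epithelial line, in which newly made RNA takes up 4-thiouridine (s4U) and is later read as T>C conversions. The libraries ask how mRNA levels and mRNA decay differ between cells labelled as a CCND1 knockdown and cells labelled as a CCND1 overexpression, CCND1 being the gene of cyclin D1, which drives cells into S phase.

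Both lines were kept in 0.5 µg/mL doxycycline, and by the study's methods each line thereby expressed an shRNA whose target lies in the CCND1 3′ UTR. The overexpression line carried in addition an induced CCND1 that the shRNA does not recognise. The knockdown group held 17 libraries in 2 courses, one of 6 and one of 9 chase times plus an unlabelled library each, and the overexpression group held 17 in 2 courses of 7 and 8 chase times. A course is the set of libraries of a line that share a replicate number. Cells took up 10 µM s4U for 24 h from day 4, with fresh medium every 3 h, and were chased in 1 mM uridine for up to 1440 min, and the unlabelled cells were given uridine rather than s4U. Both lines were made with integrated inducible vectors and selected as populations, and no source used here says whether the libraries of a course came from one culture, so the spread between courses may be partly technical. CCND1 itself had 140 and 156 CPM in the knockdown courses and 54.1 and 62.3 CPM in the overexpression courses. These reads lie in the UTR that the shRNA targets in both lines and do not count a transgene that lacks it, so they check neither label, and each direction below follows the labels.

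Lysosomes break down proteins, glycans and lipids at acid pH. The vacuolar ATPase pumps in the protons through a membrane sector, V0, driven by a cytosolic sector, V1, while heavily glycosylated membrane proteins shield the limiting membrane. Many of these genes share an E-box in their promoters, the CLEAR motif, that MITF, TFE3 and TFEB bind.

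The E-box CACGTG is shown first, since it is the promoter feature by which this gene family is usually recognised. RefSeq promoter windows of GRCh38.p14, from 250 bases before to 50 bases after a start, were matched for 32 of the 46 members. CACGTG on either strand was in 10 of these 32 windows (31.2%), against 8.78% of 27305 genes with a window and 12.2% of the 10364 that were also tested for abundance. The extended form TCACGTG, which contains it, was in 9 members (28.1%), against 4.49% of all windows and 6.95% of those of genes also tested. Members whose mRNA was called higher in the knockdown line, as described after the sequences, held CACGTG in 4 of 10 windows and members tested but not called higher in 4 of 19. The 30-base windows of the called members GAA, NEU1, ATP6V0D1 and CD63, and of CTSA and GALNS, which were not called, show how the motif and its flanks vary, with CACGTG in capitals.
GAA, chr17:80101493-80101522, + strand: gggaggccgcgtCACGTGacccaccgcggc
GAA, chr17:80101538-80101567, + strand: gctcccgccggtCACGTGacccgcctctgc
NEU1, chr6:31862930-31862959, - strand: atgctgcgtgatCACGTGggaggagatgag
ATP6V0D1, chr16:67481199-67481228, - strand: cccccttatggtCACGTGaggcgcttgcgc
CD63, chr12:55729172-55729201, - strand: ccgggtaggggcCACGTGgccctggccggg
CTSA, chr20:45891298-45891327, + strand: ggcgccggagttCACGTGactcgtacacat
GALNS, chr16:88857104-88857133, - strand: caggcaccgcgtCACGTGacccgccgctgg
LAMP1 had 6 copies of CACGTG in its window and was not called. A match describes letters only, not binding.

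Libraries held 14712332 to 44480703 reads in 3′ UTR intervals, and the members took 0.636% to 1.05% of them (median 0.903%) in the 17 knockdown libraries and 0.399% to 0.650% (median 0.612%) in the 17 overexpression libraries. 3 libraries stood apart from the rest of their line, with a correlation of log2 levels of 0.868 for overexpression 1 at 720 min, 0.892 for the unlabelled library of knockdown 1 and 0.921 for that of overexpression 1. The other 31 had 0.967 to 0.9904. Retinal pigment epithelium markers were nearly absent, with 11 of 12, RPE65, BEST1 and RLBP1 among them, at most 4.544 CPM in any library and MITF as the exception. All 12 macrophage and blood markers reached at most 4.16 CPM, and TYROBP, MRC1, C1QA and C1QB had no read. VIM had 5464 to 11343 CPM in knockdown and 6117 to 10214 CPM in overexpression libraries, and CDH1 reached at most 0.482 CPM. Of the markers tested between the lines, 1 of 5 of the pigment epithelium (MITF) and 0 of 2 of macrophages were higher in knockdown. So were 2 of 5 of epithelial or mesenchymal lines (KRT8 and KRT18), and no marker was lower. Over all genes 11.2% were called higher and 10.7% lower. The median log2 of knockdown over overexpression was -0.82 for the tested pigment epithelium markers, most of which thus went the other way from MITF. It was 0.68 for macrophage markers and 0.63 for epithelial or mesenchymal ones.

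Lysosomal mRNAs were on the whole more abundant in the knockdown line. Of 43 members tested, 18 were higher, 1 was lower and 24 were not called by edgeR's quasi-likelihood test on course sums at an adjusted p below 0.05, beside 11.2% of 13165 genes called higher, 10.7% called lower and 21.9% called in all. The median log2 of knockdown over overexpression was 0.44 for the members and -0.01 for all genes, and it was above 0 for 39 of 43 members and for 49.4% of all genes. Both knockdown courses lay above both overexpression courses for 36 members (30.6% of all genes) and below both for 3 (30.4%). All 17 knockdown libraries lay above all 17 overexpression libraries for CTSK, NEU1, LIPA and ATP6V1A (1.41% of all genes) and below them for GUSB (1.18%). Levels are normalised per library, so they give shares of the reads and not RNA per cell. A change in every cell and a change in part of a population cannot be told apart. By the study, induced knockdown cells were the larger and induced overexpression cells the smaller ones, and the part of cell size was not tested.

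**Figure D1:**
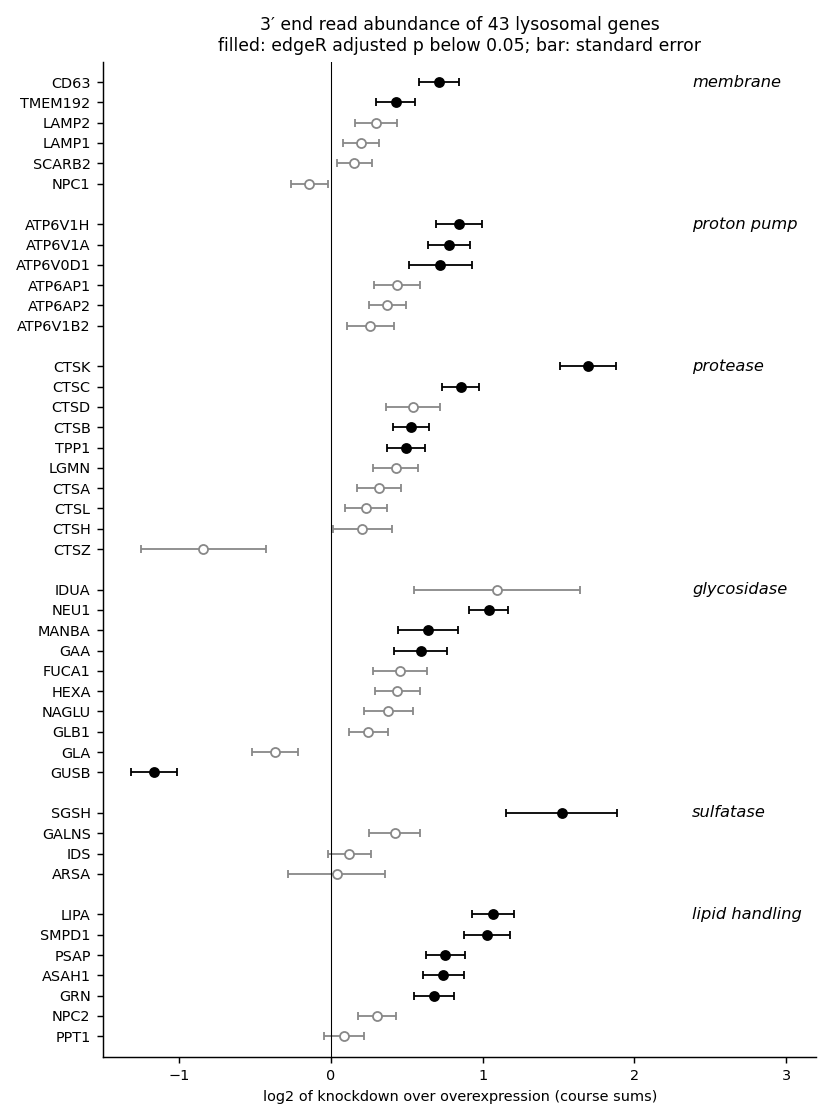
log2 of knockdown over overexpression for the 43 members tested, by role, with the standard error as a bar and filled points for an edgeR adjusted p below 0.05. All points but NPC1, CTSZ, GLA and GUSB lie above 0, and CTSK (1.69) and GUSB (-1.17) mark the ends of the called members.

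The difference was also seen in the sum of the members. Summed over the members, the normalised level ran from 6533 to 10786 CPM (median 9035) in knockdown libraries and from 4036 to 6564 CPM (median 5950) in overexpression libraries, so that the lowest knockdown library, the unlabelled one of course 1, fell inside the overexpression range. Without CD63 and PSAP, which took the most member reads, the sum ran from 3977 to 4983 CPM in knockdown and from 2846 to 3304 CPM in overexpression libraries, with no overlap at any chase time.

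**Figure D2:**
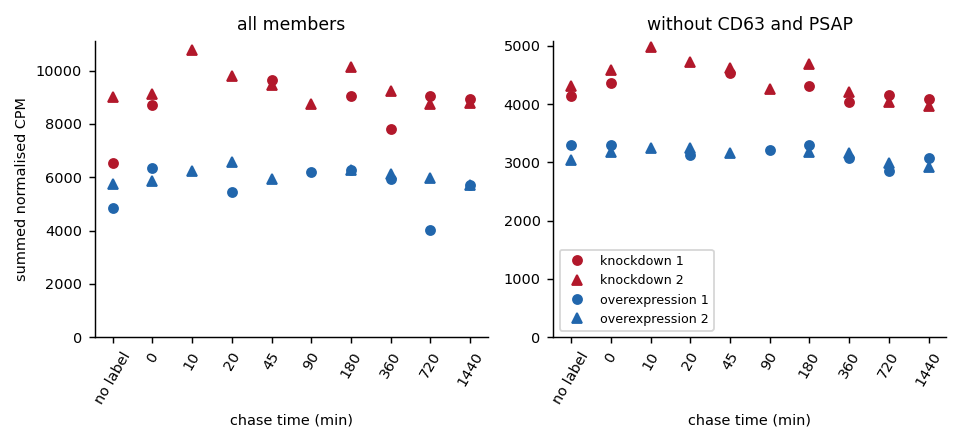
Summed normalised CPM of the members in each library by chase time, for all members (left) and without CD63 and PSAP (right), in knockdown (red) and overexpression (blue) libraries. Without CD63 and PSAP the knockdown libraries lie at 3977 CPM and above and the overexpression libraries at 3304 CPM and below.

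Among the cathepsins and other proteases, 4 of 10 tested were higher in knockdown and 6 were not called, with a median log2 of 0.46. CTSK, a cysteine protease that cleaves collagen, had 37.5 to 71.9 CPM (median 45.9) in the 17 knockdown libraries and 5.63 to 21.7 CPM (median 15.0) in the 17 overexpression libraries. No knockdown library overlapped an overexpression library. Its course sums were 50.2 and 50.3 CPM in knockdown and 12.6 and 18.5 CPM in overexpression, a 3.24-fold difference (log2 1.69, SE 0.18, edgeR adjusted p = 0.000228). Its reads lay in 1 tested interval, on chromosome 1 from 150796208 to 150796798 of hg38, minus strand, in the 3′ UTR of the gene.

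CTSC, a dipeptidyl peptidase that activates granule proteases of immune cells, was at 424 and 394 CPM in knockdown and at 239 and 213 CPM in overexpression (log2 0.85, SE 0.12, edgeR adjusted p = 0.00104). CTSB, a cysteine protease, was called at log2 0.53 and TPP1, which removes tripeptides from the ends of proteins, at 0.50. The values of CTSD (0.54), LGMN (0.43), CTSA (0.32), CTSL (0.23) and CTSH (0.21) were above 0 and did not pass. CTSD is the main aspartic protease of lysosomes, LGMN cuts after asparagine, CTSA protects NEU1 and GLB1, and CTSH trims amino ends.

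CTSZ, a carboxypeptidase, had the lowest protease value and it rested on 2 of the libraries that enter the course sums. Knockdown libraries had 2.94 to 14.6 CPM (median 5.70) and overexpression libraries 3.19 to 63.9 CPM (median 5.92), giving a log2 of -0.84 (SE 0.41, edgeR adjusted p = 0.178). Overexpression 1 held 63.9 CPM at 720 min, 43.2 CPM unlabelled and 30.3 CPM at 20 min, and every other overexpression library was at 7.74 CPM or below. The 20 min library does not enter the course sums, and over 0, 180, 360 and 1440 min, without either of the others, the log2 was 0.10. Without course 1 of overexpression the log2 was 0.17. Without knockdown course 1 it was -1.16 (adjusted p = 0.0171) and without overexpression course 2 it was -1.42 (adjusted p = 0.000526).

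The intervals of CTSC end different transcripts, and both were measured. The interval at chromosome 11, 88293592 to 88294005 of hg38, closes GENCODE transcripts that encode up to 463 amino acids, and the interval from 88320811 to 88326432 closes one that encodes 137. The 88320811 interval was called higher in knockdown (log2 1.23, edgeR adjusted p = 0.00148), and the 88293592 interval was at 0.50 (adjusted p = 0.100). Set against the rest of the gene in edgeR, the 88293592 interval gave a p of 0.0253 and an adjusted p of 0.738 and the 88320811 interval a p of 0.0696 and an adjusted p of 1, so the difference between them was not called. Of 103 member intervals tested in this way for abundance, 19 were called, against 8.32% of 25703 intervals, and within genes 0 of 83 member intervals were called (unadjusted p below 0.05 for 3), against 0.0351% of 17096.

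Glycosidases gave 3 higher, 1 lower and 6 not called of 10 tested, with a median log2 of 0.45. NEU1, the sialidase that takes sialic acid off glycoproteins and gangliosides, had 58.3 to 89.0 CPM (median 65.9) in knockdown libraries and 24.6 to 46.4 CPM (median 34.8) in overexpression libraries. All 17 knockdown libraries lay above all 17 overexpression libraries. The course sums were 68.1 and 71.0 CPM in knockdown and 33.5 and 34.2 CPM in overexpression (2.06-fold, log2 1.04, SE 0.13, edgeR adjusted p = 0.000443). Its main interval, with 99.97% of its reads, runs from 31859052 to 31859945 on chromosome 6, minus strand.

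GUSB, beta-glucuronidase, was the 1 member called lower. It had 15.0 to 27.3 CPM (median 19.1) in knockdown and 27.4 to 67.3 CPM (median 40.2) in overexpression libraries, again with no overlap. The 2 highest overexpression libraries, at 67.3 and 66.4 CPM, were the ones of course 1 that stood apart. Course sums were 18.5 and 19.5 CPM in knockdown and 47.2 and 38.1 CPM in overexpression (log2 -1.17, SE 0.15, edgeR adjusted p = 0.000606), so the knockdown level was 0.446 of the other. GLA, alpha-galactosidase A, was also below 0, at 17.7 and 21.1 CPM in knockdown against 25.3 and 24.7 CPM in overexpression (log2 -0.37, adjusted p = 0.113).

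MANBA (log2 0.64) and GAA (0.59), which degrade mannosides and glycogen, were called higher. FUCA1 (0.46), HEXA (0.44), NAGLU (0.38) and GLB1 (0.25) were above 0 and not called; they remove fucose, hexosamine, N-acetylglucosamine of heparan sulfate and galactose. IDUA, the iduronidase, had the top value of the role at log2 1.10, yet at only 0.383 to 2.65 CPM in knockdown and 0 to 1.504 CPM in overexpression libraries it was not called (SE 0.55, edgeR adjusted p = 0.185).

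Of 4 sulfatases tested, SGSH was called and IDS (0.12), GALNS (0.42) and ARSA (0.04) were not. SGSH, which removes N-sulfates from heparan sulfate, was scarce, with 1.36 to 7.79 CPM (median 3.85) in knockdown and 0 to 2.77 CPM (median 1.48) in overexpression libraries. The libraries overlapped and the courses did not, with 4.21 and 4.21 CPM in knockdown and 1.008 and 1.92 CPM in overexpression (2.87-fold, log2 1.52, SE 0.37, edgeR adjusted p = 0.0144). In the 0 min libraries alone the log2 was 2.21 with an adjusted p of 0.0933. ARSA, which degrades sulfatide, was at 2.69 and 2.40 CPM in knockdown and 2.60 and 2.36 CPM in overexpression.

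Proteins of lipid breakdown, together with the precursors PSAP and GRN, had the highest median of the roles, 0.74, with 5 of 7 called higher. LIPA, the acid lipase that frees cholesterol from its esters, had 50.8 to 119 CPM (median 56.7) in knockdown and 22.3 to 45.3 CPM (median 30.9) in overexpression libraries, with no overlap. The top value, 119 CPM, came from the unlabelled library of knockdown 1, which stood apart. Course sums were 67.7 and 59.99 CPM in knockdown and 31.4 and 29.4 CPM in overexpression (2.10-fold, log2 1.07, SE 0.14, edgeR adjusted p = 0.000526).

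SMPD1, acid sphingomyelinase, had 15.2 to 60.8 CPM (median 48.2) in knockdown and 8.84 to 26.4 CPM (median 22.7) in overexpression libraries. The single knockdown library within the overexpression range, at 15.2 CPM, was the same unlabelled library. At the course level SMPD1 was at 39.9 and 47.0 CPM in knockdown and at 19.6 and 22.9 CPM in overexpression (2.04-fold, log2 1.03, SE 0.15, edgeR adjusted p = 0.00113). PSAP, the precursor of the saposins that present lipids to hydrolases, ASAH1, acid ceramidase, and GRN, progranulin, were called at 0.75, 0.74 and 0.68. NPC2, which binds cholesterol and hands it to NPC1, was at 0.30, and PPT1, which takes palmitate off proteins, was lowest of the role, at 77.4 and 82.2 CPM in knockdown and 80.6 and 69.9 CPM in overexpression (log2 0.08, edgeR adjusted p = 0.6998).

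**Figure D3:**
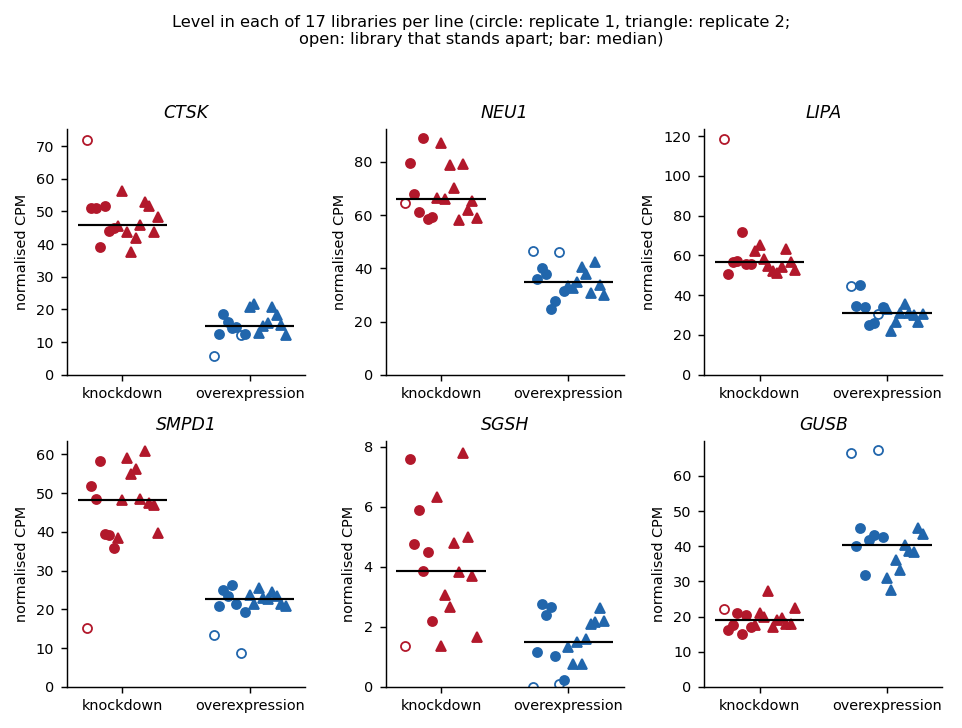
Normalised CPM in each library for the 5 members called with a log2 of at least 1 and for GUSB, knockdown left and overexpression right, with circles for replicate 1, triangles for replicate 2, open symbols for the 3 libraries that stood apart and a bar at the median. CTSK, NEU1 and LIPA are higher and GUSB lower in all 17 knockdown libraries, whereas 1 SMPD1 and several SGSH libraries overlap.

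The proton pump gave 3 of 6 members higher, with all 6 above 0 and a median log2 of 0.58. ATP6V1H, the regulatory subunit H of V1, had course sums of 103 and 81.3 CPM in knockdown and 54.6 and 47.9 CPM in overexpression (log2 0.84, SE 0.15, edgeR adjusted p = 0.00322). ATP6V1A, the catalytic subunit, had 101 to 228 CPM in knockdown and 66.3 to 94.9 CPM in overexpression libraries, without overlap, and a log2 of 0.78. ATP6V0D1, of the membrane sector, was called at 0.72. The accessory subunits ATP6AP1 (0.44) and ATP6AP2 (0.37) and subunit B2, ATP6V1B2 (0.26), were not called. ATP6V1B2 had the lowest value of the role, with 221 and 222 CPM in knockdown and 214 and 155 CPM in overexpression.

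Of 6 membrane proteins, CD63 and TMEM192 were higher in knockdown. The tetraspanin CD63 had 1753 to 4203 CPM (median 3419) in knockdown and 774 to 2397 CPM (median 2144) in overexpression libraries. Only the lowest of the knockdown libraries reached into the overexpression range. Course sums were 3037 and 3517 CPM in knockdown and 1834 and 2167 CPM in overexpression (log2 0.71, SE 0.13, edgeR adjusted p = 0.00401). TMEM192 was called at 0.43.

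LAMP1 (0.20) and LAMP2 (0.30), the main glycoproteins of the lysosomal membrane, and SCARB2 (0.16), which carries glucocerebrosidase, were not called. NPC1, the cholesterol exporter, had 66.4 and 64.9 CPM in knockdown and 72.3 and 72.5 CPM in overexpression (log2 -0.14, edgeR adjusted p = 0.465). The 3 members without a test were CTSF, with no read, and MCOLN1 and MAN2B1, whose reads fell only in intervals they share with the clone-named genes AC008878.2 and AC010422.3. With these intervals counted, MCOLN1, a calcium channel, had a log2 of -0.01 and MAN2B1, an alpha-mannosidase, of 0.06, and neither was called. IDS shares its main interval with AC244197.3, and with it its log2 was 0.31 (edgeR adjusted p = 0.126).

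12 of the 19 calls held under each of 14 alternatives, which were other normalisations, filters, sets of libraries and fits. Of the other 7, SGSH lost its call only in the 0 min libraries alone (adjusted p = 0.0933), and 6 lost theirs when a course was left out. In the 0 min libraries alone ATP6V0D1 (0.0837), GAA (0.413) and TMEM192 (0.0550) were not called either. ATP6V0D1 had an adjusted p of 0.146 without knockdown 2 and 0.159 without overexpression 1, and CTSB had 0.0657 and 0.0658 without the same courses. TPP1 had 0.0613 without knockdown 1, 0.0895 without overexpression 1 and 0.0551 without overexpression 2, and MANBA had 0.0534, 0.0840 and 0.206 without knockdown 1, knockdown 2 and overexpression 2. Whichever course was left out, GAA had 0.0807 to 0.102 and TMEM192 0.0695 to 0.171. Without the 4 unlabelled libraries 25 members were higher and 1 lower, against 14.4% and 13.9% of 13006 genes. Over 0, 180, 360 and 1440 min, which leaves out all 3 libraries that stood apart, 25 were again higher and 1 lower, against 15.6% and 15.3% of 12801 genes.

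Single time points showed the same direction with fewer calls at some times. In the 0 min libraries, 2 against 2, 17 members were higher and 1 lower, against 8.01% and 7.83% of 11805 genes. At 360 min 8 were higher and 1 lower (4.83% and 4.91%), and at 1440 min 15 were higher and 1 lower (4.87% and 3.77%). In the unlabelled libraries, of which both of the first replicates stood apart, 0 members were called, against 0.0344% of 11613 genes.

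Other genes of the pathway, from lists drawn up beside the members, included calls in the higher direction only in each of 5 lists, and most genes of these lists were not called. Beside these counts stand 11.2% of all genes called higher and 10.7% called lower. Of 29 other lysosomal hydrolases and activators tested, 9 were higher and none lower (median log2 0.34), with RNASET2, an acid ribonuclease, at 15.4 and 18.3 CPM in knockdown and 7.27 and 6.62 CPM in overexpression (log2 1.28, edgeR adjusted p = 0.000844). GM2A, an activator of ganglioside breakdown, was at 0.97. Of 32 other membrane proteins and transporters, 9 were higher and none lower (median 0.25), led by SLC29A3, a nucleoside transporter, at 1.40 and GPR137B, which binds mTORC1 regulators, at 1.09.

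Of 14 other proton pump subunits, 7 were higher and none lower (median 0.43). ATP6V1G2 (log2 2.18), an isoform best known from neurons, rested on 1.23 and 1.08 CPM in knockdown and 0.291 and 0.218 CPM in overexpression. ATP6V0A4 (1.34), best known from kidney, rested on 3.62 and 2.85 CPM in knockdown and 1.28 and 1.27 CPM in overexpression. The widely expressed ATP6V1F was at 0.94 and ATP6V0E1 at 0.75. In the machinery that tags and sorts enzymes by mannose 6-phosphate, 2 of 23 genes were higher and none lower (median 0.06), a share below the 11.2% of all genes called higher. GNPTAB, whose protein makes the tag, had 55.4 and 46.8 CPM in knockdown and 26.4 and 18.1 CPM in overexpression (log2 1.202, edgeR adjusted p = 0.00154), and the receptor IGF2R was at 0.48.

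Among 19 MiT/TFE factors and their regulators, 5 were higher and none lower (median 0.34). MITF had 86.7 and 65.3 CPM in knockdown and 39.3 and 38.6 CPM in overexpression (log2 0.96, SE 0.16, edgeR adjusted p = 0.00184). TFE3 was at -0.05 (adjusted p = 0.809), and TFEB, at 3.53 and 3.01 CPM in knockdown and 1.94 and 1.51 CPM in overexpression, was at 0.92 and missed the threshold (adjusted p = 0.0721). The called regulators were RRAGC (0.65), FLCN (0.47), LAMTOR3 (0.46) and RRAGA (0.42), which place and switch mTORC1 at the lysosome. KRT8 and KRT18, epithelial keratins, were also higher in knockdown, at 0.92 and 0.63, and the part of this in the lysosomal result was not tested.

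Over the chase the members changed little. Between 1440 and 0 min, with the lines together, 0 of 43 members were called higher and 0 lower by edgeR (8 had an unadjusted p below 0.05, as did 2227 genes), against 2.35% and 2.24% of 12280 genes. The median log2 was -0.14 for members and 0.00 for all genes, and 14 of 43 members were above 0, against 50.6% of all genes. DESeq2 called 3 members lower, TMEM192, ATP6V1B2 and CTSD, with adjusted p of 0.0179, 0.0231 and 0.0447, beside 3.51% of 11884 genes called lower and 3.73% called higher.

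TMEM192 was lower at the end of the chase in each course. At 0 min it had 76.4 and 90.9 CPM in the knockdown courses and 58.5 and 58.3 CPM in the overexpression courses, and at 1440 min 55.4 and 68.5 CPM in knockdown and 44.9 and 44.5 CPM in overexpression (log2 -0.42, SE 0.13, edgeR adjusted p = 0.0571). SGSH (-0.47), MANBA (0.40), NAGLU (-0.40) and ATP6V0D1 (-0.39) had the other large values, and of these MANBA alone moved one way in all 4 courses. No member's change over the chase differed between the lines by the interaction term of edgeR (0 of 43, 3 with an unadjusted p below 0.05, against 0.0163% of 12280 genes called higher and 0% lower).

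Labelling itself moved no member past the threshold. For 0 min over unlabelled libraries, 0 of 43 members were called by edgeR, as were 0% of 12241 genes (unadjusted p below 0.05 for 2 members and 431 genes), and DESeq2 also called 0 members. The spread between courses was wide. CTSD had 259 and 380 CPM in labelled knockdown libraries and 58.1 and 314 CPM in unlabelled ones, and in overexpression 192 and 199 CPM labelled and 65.3 and 184 CPM unlabelled. Both low values came from the unlabelled libraries that stood apart.

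At the end of the pulse T>C conversions made up 0.682% and 0.656% of covered T bases in the median member of the knockdown courses, and 0.767% and 0.716% in the overexpression courses. In all genes pooled the values were 0.910% and 0.870% in knockdown and 0.974% and 0.9504% in overexpression. Of 43 members, 11 had less label in both knockdown courses than in either overexpression course and 3 had more, against 22.3% and 13.1% of 10870 genes. NEU1 was among the 11, at 0.757% (Wilson 95% interval 0.691% to 0.829%) and 0.910% (0.849% to 0.975%) in knockdown and 1.204% (1.08% to 1.34%) and 1.24% (1.10% to 1.40%) in overexpression. These intervals cover counting error only.

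Half-lives were fitted to the loss of label as a share of covered T bases. By the study's estimate, induced overexpression cells doubled faster than induced knockdown cells, and the part of growth in the loss of label was not tested. At an R2 of at least 0.6, 12 members had a half-life in all 4 courses. A further 12 members had none in any course, among them CTSF and MAN2B1, which had no read in an interval of their own. None of the 12 with a half-life was called longer or shorter by limma (0 and 0 of 12, 3 with an unadjusted p below 0.05). Neither was any of 3314 genes (0% longer, 0% shorter, 300 with an unadjusted p below 0.05). The median log2 of knockdown over overexpression was 0.41 for the 12 members and 0.20 for all genes, and 10 of 12 lay above 0, as did 68.1% of all genes. In 7 members both knockdown courses exceeded both overexpression courses (33.2% of all genes), and in 0 both were below (9.32%).

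The mRNAs of the 12 members with a half-life in all 4 courses were long-lived beside the rest. In the 4 courses their median half-life was 8.85 and 7.95 h in knockdown and 6.87 and 5.74 h in overexpression, against 4.99 and 5.36 h in knockdown and 4.89 and 4.44 h in overexpression over all genes. Taken course by course, 23 and 15 members had a fit in knockdown, with medians of 8.17 and 8.53 h. In overexpression 22 and 23 members had one, with medians of 7.12 and 7.30 h. All genes with a fit had 4.31 and 5.05 h in knockdown and 4.63 and 4.11 h in overexpression. By mean half-life, 6 of the 12 lay among the 663 genes of the longest half-lives, 7.22 to 33.9 h, in which the median log2 ratio of all genes was 0.36 and that of the 6 members 0.41.

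NEU1 mRNA lasted 17.5 and 7.73 h in the knockdown courses and 2.95 and 4.08 h in the overexpression courses. This was the widest gap among the 12 (log2 1.74, SE 0.40), with a limma adjusted p of 0.504. The unlabelled rate subtracted for NEU1 was 0.124% in knockdown 2, against 0.0073% in knockdown 1 and 0.0068% and 0.020% in overexpression. In knockdown 2 the 1440 min rate, 0.019%, lay below it. PPT1 lasted 10.8 and 12.6 h in knockdown and 6.39 and 3.79 h in overexpression (log2 1.24, adjusted p = 0.504). For CD63 the half-lives were 35.4 and 22.4 h in knockdown and 13.7 and 16.6 h in overexpression (log2 0.90, adjusted p = 0.518).

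The groups did not overlap for NEU1, PPT1 and CD63, nor for TMEM192 (5.59 and 4.70 h in knockdown, 4.44 and 2.91 h in overexpression), ATP6V1B2 (7.36 and 6.58 h in knockdown, 5.36 and 4.66 h in overexpression), ATP6V1A (8.17 and 8.19 h in knockdown, 6.67 and 6.18 h in overexpression) and PSAP (22.9 and 26.9 h in knockdown, 22.5 and 14.3 h in overexpression). They overlapped for ATP6V1H (7.04 and 7.21 h in knockdown, 7.32 and 4.42 h in overexpression), CTSC (9.94 and 8.53 h in knockdown, 9.30 and 7.53 h in overexpression), SCARB2 (9.596 and 15.0 h in knockdown, 14.5 and 8.62 h in overexpression), CTSL (7.05 and 6.14 h in knockdown, 6.82 and 7.30 h in overexpression) and NPC1 (4.55 and 6.73 h in knockdown, 6.92 and 5.33 h in overexpression). PPT1 thus had a wide gap in half-life and a log2 abundance of 0.08. For TMEM192 in overexpression 2 the subtracted unlabelled rate, 0.092%, was close to the 0.108% at 360 min. CTSK, LIPA, SMPD1, SGSH and GUSB, called between the lines with an absolute log2 of at least 1 in abundance, had no half-life in all 4 courses.

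**Figure D4:**
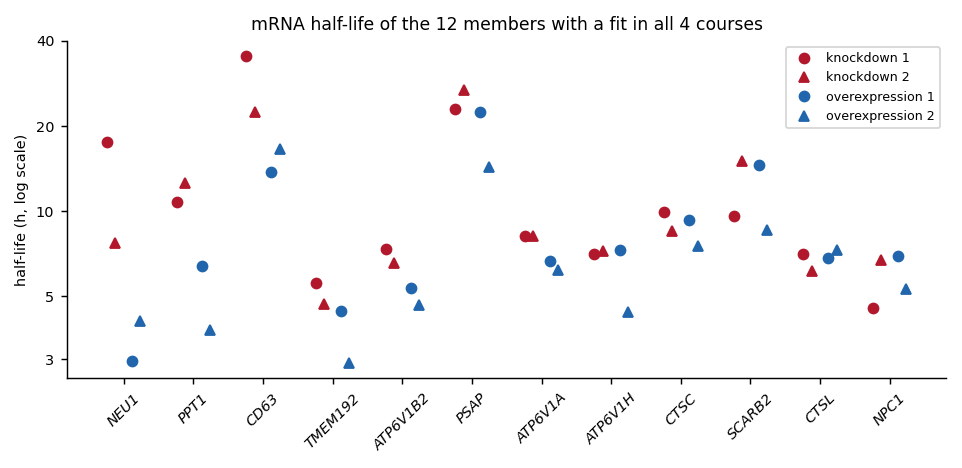
Half-life in h on a log scale for the 12 members with a fit in all 4 courses, knockdown courses (red) left of overexpression courses (blue), in order of the log2 ratio. NEU1, PPT1 and CD63 show the widest gaps, and in 5 of the 12, from ATP6V1H to NPC1, the courses overlap.

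Leaving out overexpression 2 lowered the members' median to 0.17 and leaving out overexpression 1 raised it to 0.63. Without the 720 min library of overexpression 1 it was 0.31 for members and 0.11 for all genes.

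Label left at a single time needs no curve. At 360 min it was measured for 38 members, of which 0 were called with more and 0 with less label in knockdown by limma (2 with an unadjusted p below 0.05), as were 0% of 7112 genes. The median log2 of knockdown over overexpression was 0.21 for members and 0.22 for all genes. Courses were apart with more label in knockdown for 10 members (26.8% of all genes) and with less for 1 (9.81%).

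NEU1 kept 117% and 67.6% of its 0 min label in knockdown and 47.2% and 28.5% in overexpression (log2 1.28, SE 0.47, limma adjusted p = 0.869). CTSK kept 93.5% and 99.2% in knockdown and 40.4% and 72.2% in overexpression (log2 0.83), and PPT1 kept 78.5% and 85.7% in knockdown and 67.0% and 50.5% in overexpression. The 1 member with less label in knockdown was LGMN, with 37.9% and 43.97% in knockdown against 69.7% and 125% in overexpression (limma adjusted p = 0.869). Its label ran unevenly, at 11.6% at 45 min in knockdown 1. In overexpression 1 it was at 5.52% at 20 min and at 110% at 180 min. At 720 min NEU1 kept 67.4% and 30.3% in knockdown and 4.03% and 10.6% in overexpression, the 4.03% coming from the library that stood apart. The 30.3% follows subtraction of the 0.124% unlabelled rate of knockdown 2.

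**Figure D5:**
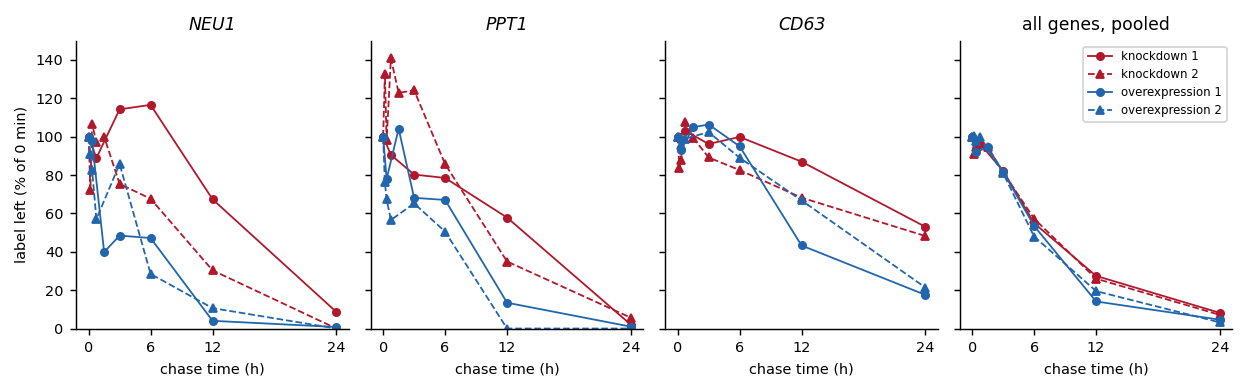
T>C rate less the unlabelled rate, as a percentage of that at 0 min, over chase time in h for NEU1, PPT1, CD63 and all genes pooled, in knockdown (red) and overexpression (blue) courses, solid for replicate 1 and dashed for replicate 2. At 12 h NEU1 stands at 67.4% and 30.3% in knockdown and at 4.03% and 10.6% in overexpression, while all genes pooled stand at 27.4% and 26.0% in knockdown and at 14.1% and 19.5% in overexpression.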

How the data were processed

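In 34 libraries of 3′ end reads (QuantSeq 3′ mRNA-Seq FWD, 100 nt), the authors' sequencing service ran SLAMdunk 0.4.3 on genome hg38, per the file headers and labels, and deposited per 3′ UTR interval the counts of reads, covered T bases and conversions, the CPM over mapped reads and the conversion rate as a fraction. Which annotation release defined the intervals could not be read from the paper, labels or headers. Intervals naming several genes (2.28% to 2.74% of reads) stayed out of gene sums. Abundance was tested with edgeR 4.0.16 (R 4.3.3; TMM, filterByExpr, quasi-likelihood test) on counts summed per course over the unlabelled, 0, 180, 360, 720 and 1440 min libraries, chase and label on single libraries, with Benjamini-Hochberg adjustment over all genes at 0.05. DESeq2 1.42.0 was an alternative. Levels are CPM after TMM scaling, and changes of single courses are on the log2(CPM + 2) scale. For decay, intervals with over 10% multimapped reads were left out, the unlabelled rate was subtracted, exp(-Kt) was fitted to rates over that at 0 min (at least 1 CPM, 4 times, R2 of at least 0.6), and log2 half-life or log2 label left was tested with limma 3.58.1. The deposited CPM were used only as that minimum, and the deposited fraction was checked against conversions over covered T. Depth was 14712332 to 44480703 reads per library; n is 2 courses per line. Scripts were run on simulated data. The simulated label was stronger and the simulated half-life changes were larger than those seen here. Whether the half-life test can detect smaller changes was not examined. The members, lists and tests were chosen with earlier results of these data known. Members called with an absolute log2 of at least 1, members called lower and the ends of each role are given in full. Interval ends were matched to GENCODE 44 (hg38). The replicate numbers and courses were not taken as pairs.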

Additional observations from a re-analysis of the deposited data

Results flagged for a closer look

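In 4 members the knockdown courses both moved one way over the chase and the overexpression courses both the other. The difference in mean log2 change, knockdown minus overexpression, was -0.54 for CTSC, 0.72 for CTSL, 0.41 for FUCA1 and -0.65 for GALNS. CTSL had 85.8 and 95.5 CPM at 0 min and 114 and 113 CPM at 1440 min in knockdown, and 102 and 95.2 CPM at 0 min and 68.6 and 79.7 CPM at 1440 min in overexpression. The interaction term of edgeR gave adjusted p of 0.658 for CTSL, 0.8003 for CTSC, 0.996 for FUCA1 and 0.964 for GALNS. Such opposed courses occurred in 10.2% of 12280 genes.

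With the label, 0 min over unlabelled, the lines moved in opposite directions in 5 members, by -0.36 for ATP6V1A, 0.88 for CTSA, 0.51 for NEU1, -1.14 for NPC2 and 0.61 for PPT1. These differences were not tested, and 10.8% of 12241 genes showed the same. The unlabelled libraries of both first courses stood apart. Between the second courses alone the changes were 0.40 in knockdown and -0.0063 in overexpression for NEU1, and -0.22 in knockdown and 0.35 in overexpression for NPC2. With 2 courses per line, no group was large enough for a check of single outlying values.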

How the results depend on the processing

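With 2 courses per line the tests rest on 4 course sums, and a change in depth was not tried. The 18 members higher and 1 lower became 34 and 2 with all 34 libraries as samples, which treats libraries of a course as independent (22.7% and 22% of all genes), 33 and 3 with the replicate number as a block (19.8% and 20.1%), 8 higher at 360 min alone and 0 and 0 in the unlabelled libraries alone. Without a filter 24 were higher and 2 lower (11.4% and 10.4% of all genes). Leaving out a course moved the counts, and the members' median log2 was then 0.43 to 0.48. The added lower calls were CTSZ and GLA. Replicate numbers deviated together between the lines (r = 0.392, one value from 2 pairs) and courses did so weakly between 0 and 1440 min (r = 0.138 and 0.0153). Members lower at 1440 min numbered 0 (2.24% of all genes), 3 with DESeq2 (3.51%), 3 without a filter (2.45%) and 2 with the course as a block (3.17%). The block changed no call of the label, interaction, half-life or label-left tests, which stayed at 0 members under every alternative run.

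The median half-life ratio, 0.41, was 0.63 when fitted from 180 min on (0.39 for all genes) and 0.17 to 0.63 with a course left out. The label-left median, 0.21 at 360 min, was -0.12 at 180 min, 0.50 at 720 min and 0.89 at 1440 min, where all genes gave -0.05, 0.88 and 0.93, and 0.08 to 0.26 with a course left out. Of the 19 called member intervals, 18 were higher and 1 lower, as they were without multimapped intervals (2138 of 25703 and 2102 of 23948 intervals called). That count moved with a course left out.

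Of 724 values of single members under the alternatives, 610 kept direction and side of the threshold, 75 came to pass it, 22 no longer passed and 17 turned sign, none of them a called member. In the 0 min libraries CTSH, CTSL and NPC2 were at -0.11, -0.12 and -0.066. CTSZ was at 0.10 over 0, 180, 360 and 1440 min. With a course left out, abundance ran from -0.046 to 0.12 for ARSA, from -0.051 to 0.43 for CTSH and from -1.42 to 0.17 for CTSZ. Half-life ratios turned for CTSC (-0.01 without 720 min of overexpression 1) and CTSL (0.049 over the 5 shared times, 0.55 from 180 min), and with a course left out they ran from -0.039 to 0.69 for ATP6V1H, from -0.015 to 0.29 for CTSC, from -0.42 to 0.15 for NPC1 and from -0.28 to 0.48 for SCARB2. The causes were not tested. Alternatives added after seeing the data were the single-time, shared-interval, single-line and interval runs and label left at 1440 min.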
